A study of Mus musculus with 13 samples.

Results

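The Kdm3b knockout (KO) was followed here through the later stage of a reprogramming time course, from day 2 to day 10. The cells were mouse pre-iPSCs, stalled intermediates derived from embryonic fibroblasts (MEFs) during conversion to induced pluripotent stem cells. Members were chosen by label: the 4 KO libraries of day 2 and day 10, replicates A and B of each, out of 13 RNA sequencing libraries, with all 20325 genes of the files. The remaining libraries are WT and KO at day 0, WT at day 2 and day 10, each with replicates A and B, and 1 library of V6.5 ESCs. The day 0 libraries carry DMSO in their titles but AA+2i as treatment, so the labels leave unclear whether they are untreated. All the cells compared were grown in ESC medium with 15% FBS and leukemia inhibitory factor, and were treated with 50 µg/mL ascorbic acid (AA) plus the 2i pair CHIR-99021, which blocks GSK3, and PD-0325901, which blocks MEK. Cultures were split at day 4, so the day 10 cells had been passaged under treatment and the day 2 cells had not. No parallel KO culture without AA+2i at day 10 was analysed here, so treatment and 8 further days of culture cannot be told apart. The labels do not describe the Kdm3b allele, whether the KO line is 1 clone, or whether A and B were separate cultures, so p-values measure only the spread between these libraries.

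KDM3B is a Jumonji-domain demethylase that removes methyl groups from lysine 9 of histone H3, a mark of silent chromatin, and it needs iron and 2-oxoglutarate as cofactors. Ascorbic acid keeps iron in the reduced form such dioxygenases use, while the 2i pair favours the naive state of pluripotency, held by factors such as Nanog, Esrrb, Klf2 and Tbx3. Pre-iPSCs grow as stable lines that carry an incomplete pluripotency network. All levels below are in CPM, the counts of a gene relative to the library total as scaled by TMM. They are given for library A and then B. A gene is called when the adjusted p (Benjamini-Hochberg false discovery rate, FDR) of edgeR's quasi-likelihood test is under 0.05. A fold change is log2 of day 10 over day 2, and the value after ± is its standard error (SE).

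Totals of the 4 KO libraries ran from 14891294 to 20851653 expected counts. The day 2 pair stood far apart: the mean transcript length, weighted by reads, was 2988 bases in A and 3912 bases in B, against 3360 and 3325 bases at day 10. The chi-square per gene between replicates was 266.4 at day 2 and 10.76 at day 10. All A libraries of days 0 and 2 lay between 2988 and 3136 bases and all B libraries between 3713 and 3916 bases, in both genotypes, and the letters carried no such difference at day 10. The 444 genes called in the KO, described below, became 798 with a correction for transcript length, 5328 with the letter as a block at days 0 and 2, and 3282 or 6667 with only letter A or only letter B at those days. Whatever sets the day 10 libraries apart from the earlier ones as a set cannot be told apart from time. Because of the wide day 2 spread, each call below was recomputed without each of the 4 libraries.

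Kdm3b itself stayed low in both KO groups, at 19.04 and 29.7 CPM at day 2, then 19.6 and 41.4 at day 10, against 148 and 171 CPM at day 2, then 194 and 193 at day 10 in WT. The KO levels overlapped between days (log2 fold change 0.32 ± 0.37, adjusted p = 0.712), and each KO library lay below every WT library. The labels give no deleted exon, so the remaining reads were not assigned to parts of the gene.

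Between day 2 and day 10, 444 of 14324 tested genes were called in the KO (3.1%), 357 higher (2.49%) and 87 lower (0.607%). The median log2 fold change was 2.04 among the higher genes and -1.60 among the lower ones, against -0.005 over all tested genes. The higher genes started low: their median level was 1.44 and 1.52 CPM at day 2 and 7.87 and 6.45 CPM at day 10. In WT the same genes had medians of 9.56 and 9.39 CPM at day 2 and 27.1 and 25.3 CPM at day 10. Thus 127 of the 357 were still at or under 0.25 of the WT day 10 level, 114 lay within 2-fold of it, and 21 were at least 4-fold above it. The 87 lower genes went from medians of 17.2 and 19.9 CPM to 6.51 and 5.0 CPM, below the WT day 10 medians of 8.87 and 8.49 CPM. All 444 called genes had day 2 and day 10 values that did not overlap, as did 43.2% of all tested genes. Where a lack of overlap is given below for a called gene, it is therefore no further evidence. Fewer genes were called without 1 library: 149 without day 2 A, 112 without day 2 B, 113 without day 10 A and 192 without day 10 B. Of the 444, 77 were called in all 4 of those fits (71 higher, 6 lower) and 206 in none of them. A fit to the 4 KO libraries alone called 0 genes (1382 with an unadjusted p under 0.05), and DESeq2 on the same libraries as the main test called 1341. With a correction for transcript length the split was 483 higher and 315 lower, in place of 357 and 87.

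**Figure D1:**
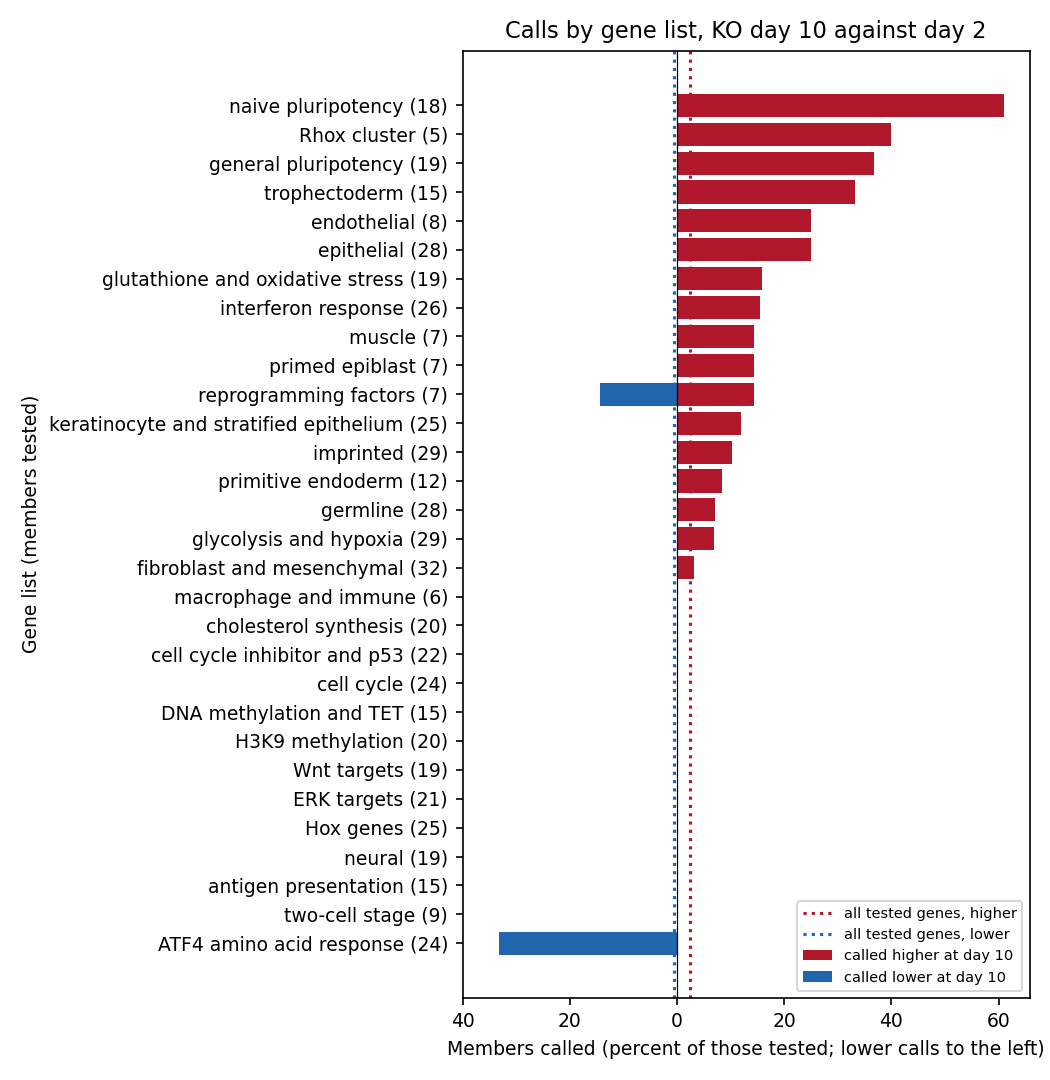
Share of tested members called higher (right) or lower (left) at KO day 10 against day 2, in percent, for 30 gene lists with the number of tested members in brackets; dotted lines mark the share over all tested genes. Naive pluripotency leads on the right with 61.1% of 18 members, and the ATF4 amino acid response on the left with 33.3% of 24 members.

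Genes of naive pluripotency had the largest share of calls among the 30 lists: 11 of 18 tested members rose and 0 fell, with a median log2 fold change of 1.63 beside -0.005 for all tested genes. Nanog, a homeobox factor at the core of the network, was at 6.22 and 4.83 CPM at day 2, then 32.5 and 30.9 at day 10. Both day 10 libraries stood above both day 2 libraries by about the same margin (log2 fold change 2.51 ± 0.32, adjusted p = 0.00579). WT reached 285 and 319.8 CPM, roughly an order of magnitude above the KO. Klf2, a Krüppel-like factor of the naive network, was at 22.5 and 17.7 CPM at day 2, then 57.6 and 50.8 at day 10, again with no overlap (log2 fold change 1.43 ± 0.17, adjusted p = 0.00473). WT Klf2 was at 70.2 and 65.7 CPM at day 2, then 122 and 142 at day 10, so the KO at day 10 had not reached the WT level of day 2. Tcfcp2l1, a transcription factor that sustains ESC self-renewal, went from 69.9 and 108 CPM to 284 and 344 CPM (log2 fold change 1.82 ± 0.33, adjusted p = 0.0247). Day 10 B exceeded WT at day 2 (249.5 and 286 CPM) and day 10 A lay within its range. Dppa5a, an RNA-binding protein of pluripotent cells, was at 10.6 and 5.096 CPM at day 2, then 115 and 64.4 at day 10 (log2 fold change 3.51 ± 0.51, adjusted p = 0.0107). WT at day 10 had 1836 and 2194 CPM.

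**Figure D2:**
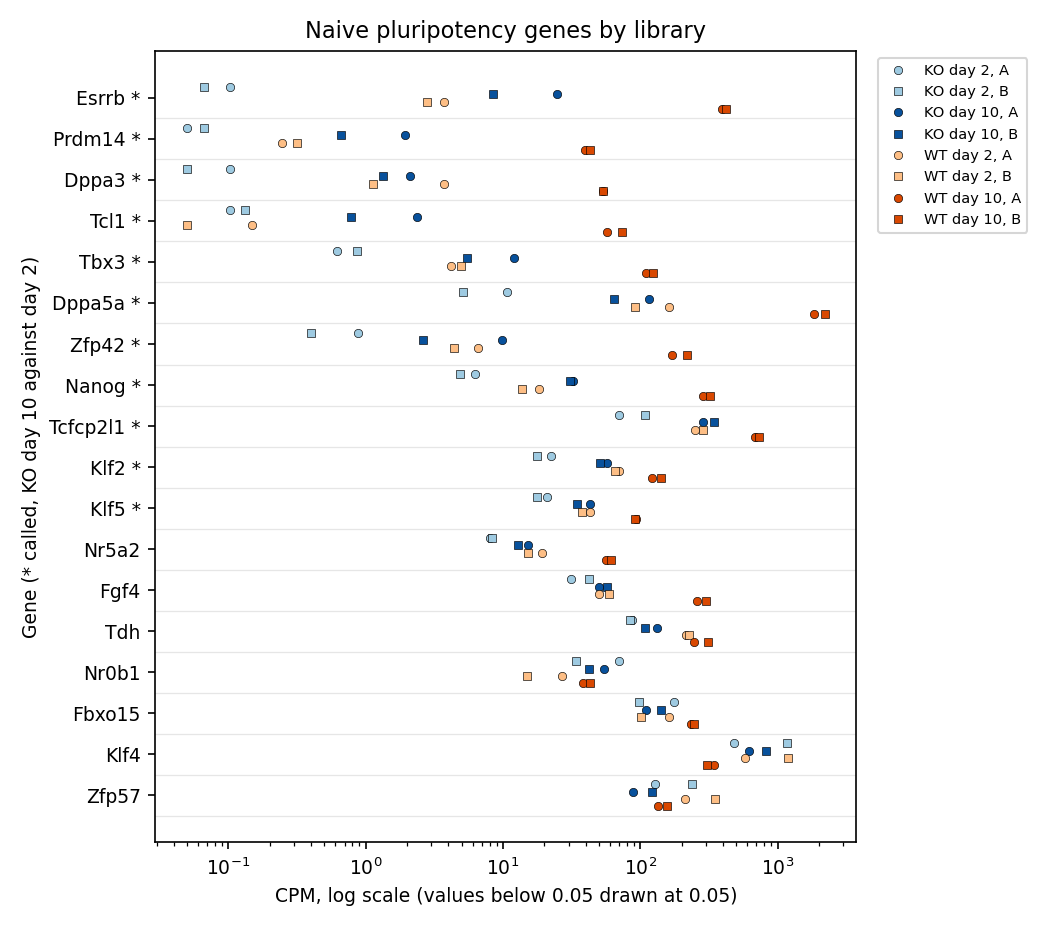
CPM of the 18 tested naive pluripotency genes on a log axis, circles for replicate A and squares for B, in KO (blue) and WT (orange) at day 2 (pale) and day 10 (dark); asterisks mark genes called in the KO. The dark blue points of Nanog, at 32.5 and 30.9 CPM, lie between the KO day 2 points and the WT day 10 points, and those of Esrrb differ between A (24.6 CPM) and B (8.44 CPM).

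A second group of naive genes rose from near 0 and did so unequally in the day 10 libraries. Esrrb, an orphan nuclear receptor that binds many pluripotency genes, had 3 reads over both day 2 libraries and 537 over both day 10 libraries, at 24.6 and 8.44 CPM. That is a 189-fold ratio (95% exact interval for counting error 64.3 to 919), and A was the higher of the day 10 pair. WT Esrrb was at 391 and 419 CPM. Tbx3, a T-box factor that supports self-renewal, was at 0.617 and 0.8603 CPM at day 2, then 12.1 and 5.42 at day 10 (log2 fold change 3.57 ± 0.46, adjusted p = 0.00618). Zfp42, the zinc finger marker also known as Rex1, was at 0.875 and 0.397 CPM at day 2, then 9.79 and 2.59 at day 10 (log2 fold change 3.23 ± 0.65, adjusted p = 0.0359). In both genes day 10 A again exceeded day 10 B by over 2-fold, while neither day 10 library overlapped day 2. The other called members, named after their values were seen, were Klf5, Dppa3, Tcl1 and Prdm14. Klf5 was at 21.04 and 17.5 CPM at day 2, then 42.6 and 34.7 at day 10, and the other 3 stayed below 2.5 CPM in each of the 4 KO libraries. Without day 2 A, day 2 B or day 10 A, 4 of the 18 members were called, and 8 without day 10 B. Nanog, Klf2 and Esrrb were called in all 4 of those fits, and Tbx3 in all but the one without day 2 A. Tcfcp2l1 and Klf5 were called in 0 of the 4 (adjusted p up to 0.135 and 0.227), Dppa5a lost the call without day 2 B or day 10 A, and Zfp42 kept it only without day 10 B.

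Pou5f1, Sox2 and Klf4, all well expressed at day 2, did not pass the test. Pou5f1, which encodes OCT4, was at 2317 and 4178 CPM at day 2, then 2490 and 3170 at day 10 (log2 fold change -0.20 ± 0.53, adjusted p = 0.907), with overlapping groups. Sox2 was at 200.4 and 392 CPM at day 2, then 207 and 209 at day 10 (log2 fold change -0.51 ± 0.49, adjusted p = 0.642), also overlapping, against 363 and 444 CPM in WT at day 10. Klf4 was at 483 and 1172 CPM at day 2, then 618 and 820 at day 10 (log2 fold change -0.20 ± 0.62, adjusted p = 0.925). Reads from reprogramming transgenes, if the line carries any, could not be told from those of the endogenous genes. Mycn, a Myc family factor that ESCs use, fell from 36.3 and 35.6 CPM to 20.8 and 23.3 CPM (log2 fold change -0.71 ± 0.15, adjusted p = 0.0437), a call lost without any 1 of the 4 libraries (adjusted p up to 0.327). In WT it went from 19.13 and 20.6 CPM to 81.2 and 84.5 CPM, and the difference between genotypes was called (interaction -2.76 ± 0.21, adjusted p = 0.000512).

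In the wider pluripotency list, 7 of 19 tested members were called higher and 0 lower (median log2 fold change 1.52). Tdgf1, the Nodal co-receptor Cripto, was at 16.4 and 22.8 CPM at day 2, then 94.9 and 57.03 at day 10 (log2 fold change 1.96 ± 0.29, adjusted p = 0.0118), with no overlap and A above B at day 10. The Nodal antagonists followed the same order. Lefty2 was at 0.0515 and 0.331 CPM at day 2, then 15.1 and 3.07 at day 10. Lefty1 was at 0.3601 and 0.331 CPM at day 2, then 4.83 and 2.05 at day 10. The RNA-binding protein gene Lin28a was at 0.103 and 0.199 CPM at day 2, then 6.51 and 1.69 at day 10. Otx2, a homeobox gene of the epiblast, was at 0.154 and 0.199 CPM at day 2, then 3.53 and 1.75 at day 10. Utf1, a chromatin protein gene of ESCs, had 0 reads at day 2 and 45 at day 10, at least 15.8-fold higher against a floor of 3 reads over the group. Dppa2 was the remaining called member, at 0.412 and 0.199 CPM at day 2, then 3.35 and 1.51 at day 10 (log2 fold change 2.92 ± 0.56, adjusted p = 0.0295). The count rested on single libraries: 0 of the 19 were called without day 2 A, 1 without day 2 B, 4 without day 10 A and 8 without day 10 B.

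The day 10 libraries differed from each other in part of the higher genes. Among the 357, 38 were at least 2-fold higher in A than in B, 6 were at least 2-fold higher in B, and 313 lay within 2-fold. The 38 had a median of 0.0423 CPM in KO at day 2 and 45.5 CPM in WT at day 10. The 313 had medians of 2.35 and 23.1 CPM. A broader set, chosen by value and so described with no test, held 119 genes with at most 3 reads over both KO day 2 libraries and at least 10 CPM in WT at day 10. Of these, 116 had at least 1 read in KO day 10 A and 108 in KO day 10 B, at medians of 3.47% and 1.20% of the WT day 10 level. The KO day 0 libraries, which the choice did not use, had at least 1 read of 38 and 52 of the 119, at medians of 0%. In 106 of the 119 genes A was above B at day 10. In bulk RNA, fewer cells of a type and less RNA per cell cannot be told apart, here and below.

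**Figure D3:**
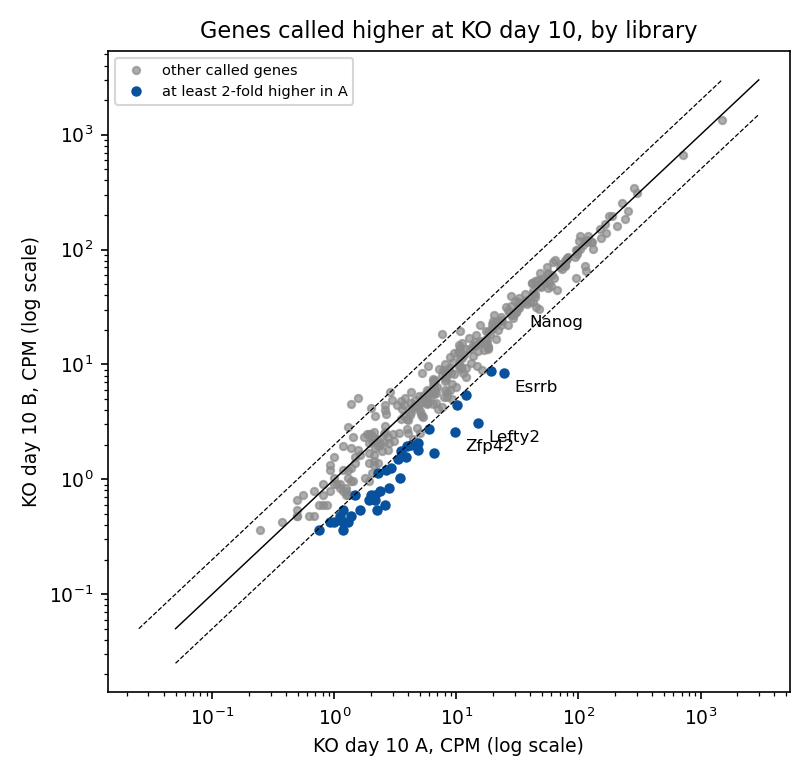
CPM in KO day 10 A (x) against KO day 10 B (y), both on log axes, for the 357 genes called higher; the solid line marks equality and dashed lines a 2-fold difference. The 38 blue genes, Esrrb, Lefty2 and Zfp42 among them, lie at least 2-fold toward A, while Nanog sits near equality at 32.5 and 30.9 CPM.

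Germline genes serve meiosis and germ cells, and promoter methylation keeps them off in most other cells. The share called higher in the KO was 7.14%, beside 2.49% of all tested genes. The list median log2 fold change was 1.59, or 1.49 with genes at 0 reads at their bound, and 19 of 28 members lay above 0. At an unadjusted p under 0.05, edgeR passed 10 members, 9 of them higher, beside 2611 of all 14324 genes. Of 28 tested members, 2 were called higher, Tex19.1 and Zfp42, which are also pluripotency genes, and neither was called without day 2 A, day 2 B or day 10 A. Dazl, an RNA-binding protein of germ cells, had 0 reads in both KO day 2 libraries and 30 and 7 reads at day 10 (adjusted p = 0.107), against 219 and 188 CPM in WT. Stag3, a meiotic cohesin subunit, was at 7.56 and 17.1 CPM at day 2, then 5.76 and 6.27 at day 10 in KO (log2 fold change -1.03 ± 0.49, adjusted p = 0.312). WT Stag3 was at 2.27 and 4.04 CPM at day 2, then 49.7 and 40.5 at day 10. Its change differed between genotypes (interaction -4.87 ± 0.72, adjusted p = 0.00432). The same holds for Piwil2, a PIWI protein of the germline (interaction -2.87 ± 0.44, adjusted p = 0.00502). Tdrkh, a Tudor-domain gene of the piRNA pathway named after its values were seen, was at 22.3 and 17.2 CPM at day 2, then 7.13 and 9.77 at day 10 in KO (log2 fold change -1.22 ± 0.30, adjusted p = 0.0704). With Stag3 and Piwil2 it was above 3 CPM in each of the 4 KO libraries. In WT, 27 of the 28 were called higher. The interaction was called for 6, all more negative in the KO.

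The clearest falling group was the ATF4 response. ATF4 is a transcription factor whose translation rises on amino acid shortage or endoplasmic reticulum stress, and its targets cover amino acid synthesis, transport and stress signalling. Of 24 tested members 8 were called lower and 0 higher, and 0 of the 24 had a fold change above 0 (median log2 fold change -1.41). The summed level of the list was 4628 and 5302 CPM at day 2 and 1973 and 1948 CPM at day 10. Atf4 itself, which is regulated largely by translation, was at 488 and 259.7 CPM at day 2, then 215 and 288 at day 10 (log2 fold change -0.57 ± 0.35, adjusted p = 0.438). The element bound by ATF4 with C/EBP partners is TGATGNAA. On either strand it was found in the RefSeq promoter window (250 bases before to 50 bases after a start site, GRCm38.p6) of 8 of 21 list members with a matched window (38.1%), and of 8 of 50 matched called fallers with at least 5 CPM (16.0%). The share was 2.84% of 11385 matched tested genes and 3.97% of all 32851 windows, and 3 of 78 matched genes among the 100 largest risers held it (3.85%). A match is a description of the letters and not evidence of binding. Of the 8 list members with TGATGNAA, only Chac1, Trib3 and Vldlr were called. The windows of 4 called fallers, picked because they hold TGATGNAA, are printed below, and other fallers that hold it are not. Each runs from 250 bases before to 30 bases after the start, on the gene's strand, with the match (here in its reverse form) in capitals.
Chac1, chr2:119350992-119351271, plus strand, match 193 bases before the start: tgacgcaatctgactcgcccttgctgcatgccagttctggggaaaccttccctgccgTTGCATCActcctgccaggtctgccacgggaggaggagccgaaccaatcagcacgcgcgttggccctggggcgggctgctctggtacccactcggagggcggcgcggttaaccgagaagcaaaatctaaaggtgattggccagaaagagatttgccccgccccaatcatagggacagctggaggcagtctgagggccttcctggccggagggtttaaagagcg
Trib3, chr2:152344031-152344310, minus strand, match 14 bases after the start: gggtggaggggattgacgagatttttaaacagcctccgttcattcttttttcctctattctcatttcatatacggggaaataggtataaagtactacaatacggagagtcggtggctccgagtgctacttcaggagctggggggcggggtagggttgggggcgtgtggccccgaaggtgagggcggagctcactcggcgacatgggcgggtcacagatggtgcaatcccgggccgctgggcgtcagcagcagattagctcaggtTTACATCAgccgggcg
Vldlr, chr19:27216770-27217049, plus strand, match 200 bases before the start: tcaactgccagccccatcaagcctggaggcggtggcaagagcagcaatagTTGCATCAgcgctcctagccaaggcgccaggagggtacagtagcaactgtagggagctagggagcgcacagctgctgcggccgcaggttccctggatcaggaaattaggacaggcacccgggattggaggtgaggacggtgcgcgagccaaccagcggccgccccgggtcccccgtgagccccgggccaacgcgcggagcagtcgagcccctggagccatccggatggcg
Pck2, chr14:55540016-55540295, plus strand, match 103 bases before the start: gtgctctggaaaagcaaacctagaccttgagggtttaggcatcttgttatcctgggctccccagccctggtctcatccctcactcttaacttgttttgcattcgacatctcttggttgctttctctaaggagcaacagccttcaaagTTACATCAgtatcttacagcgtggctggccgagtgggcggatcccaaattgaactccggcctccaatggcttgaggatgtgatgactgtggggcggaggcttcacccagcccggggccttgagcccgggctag

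Chac1, which encodes an enzyme that degrades glutathione, fell furthest among the named genes, from 40.3 and 23.9 CPM to 2.11 and 1.39 CPM (log2 fold change -4.20 ± 0.36, adjusted p = 0.00169). Trib3, a pseudokinase induced by stress, was at 51.04 and 38.7 CPM at day 2, then 6.51 and 5.79 at day 10 (log2 fold change -2.87 ± 0.19, adjusted p = 0.000456). In both genes the 2 day 2 libraries lay far above the 2 day 10 libraries, and both calls were kept in all 4 fits that leave out a library. In WT, Chac1 was at 4.29 and 3.13 CPM at day 2, then 8.13 and 7.43 at day 10, a rise of 1.07 on the log2 scale. WT Trib3 was at 15.2 and 15.1 CPM at day 2, then 32.5 and 28.6 at day 10, a rise of 1.01. Vldlr, a lipoprotein receptor that ATF4 induces, was at 38.6 and 84.4 CPM at day 2, then 14.4 and 12.5 at day 10 (log2 fold change -2.19 ± 0.42, adjusted p = 0.0314). Pck2, the mitochondrial phosphoenolpyruvate carboxykinase, is not on the list and was named after its values were seen. It fell from 248 and 386 CPM to 109 and 106 CPM (log2 fold change -1.56 ± 0.31, adjusted p = 0.0357). Vldlr and Pck2 were higher in B than in A at day 2, whereas Chac1 and Trib3 were higher in A.

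The other called members serve amino acid and one-carbon metabolism or stress signalling. Aldh18a1, the first step of proline synthesis, was at 139 and 150.2 CPM at day 2, then 70.2 and 66.4 at day 10 (log2 fold change -1.08 ± 0.14, adjusted p = 0.00604). Mthfd2, of mitochondrial folate metabolism, was at 140 and 79.7 CPM at day 2, then 36.5 and 31.3 at day 10 (log2 fold change -1.70 ± 0.37, adjusted p = 0.0455). The transcription factor gene Atf5 was at 159.9 and 101 CPM at day 2, then 47.7 and 48.95 at day 10 (log2 fold change -1.44 ± 0.26, adjusted p = 0.0248). Stc2, a secreted glycoprotein induced by stress, was at 5.71 and 11.2 CPM at day 2, then 2.73 and 1.81 at day 10 (log2 fold change -1.89 ± 0.41, adjusted p = 0.0478). Ddit3, which encodes CHOP and was named after its values were seen, was at 12.5 and 12.3 CPM at day 2, then 6.695 and 7.11 at day 10 (log2 fold change -0.84 ± 0.18, adjusted p = 0.0462). Asns, the asparagine synthetase and a standard reporter of the response, missed the threshold at 351 and 194 CPM at day 2, then 79.5 and 81.1 at day 10 (log2 fold change -1.76 ± 0.40, adjusted p = 0.055). Its day 2 A library lay far above day 2 B. Vldlr, Stc2, Aldh18a1, Atf5, Mthfd2 and Pck2 each kept the call in 1 of the 4 fits that leave out a library, and Ddit3 in 0. The list count of 8 became 5 without day 2 A or day 2 B and 2 without day 10 A or day 10 B. With the correction for transcript length the list count became 12. It was 17 with DESeq2, 18 with a replicate block over all 12 libraries and 21 with the block at days 0 and 2 only. These fits called 1341, 1152 and 5328 of all tested genes in that order.

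**Figure D4:**
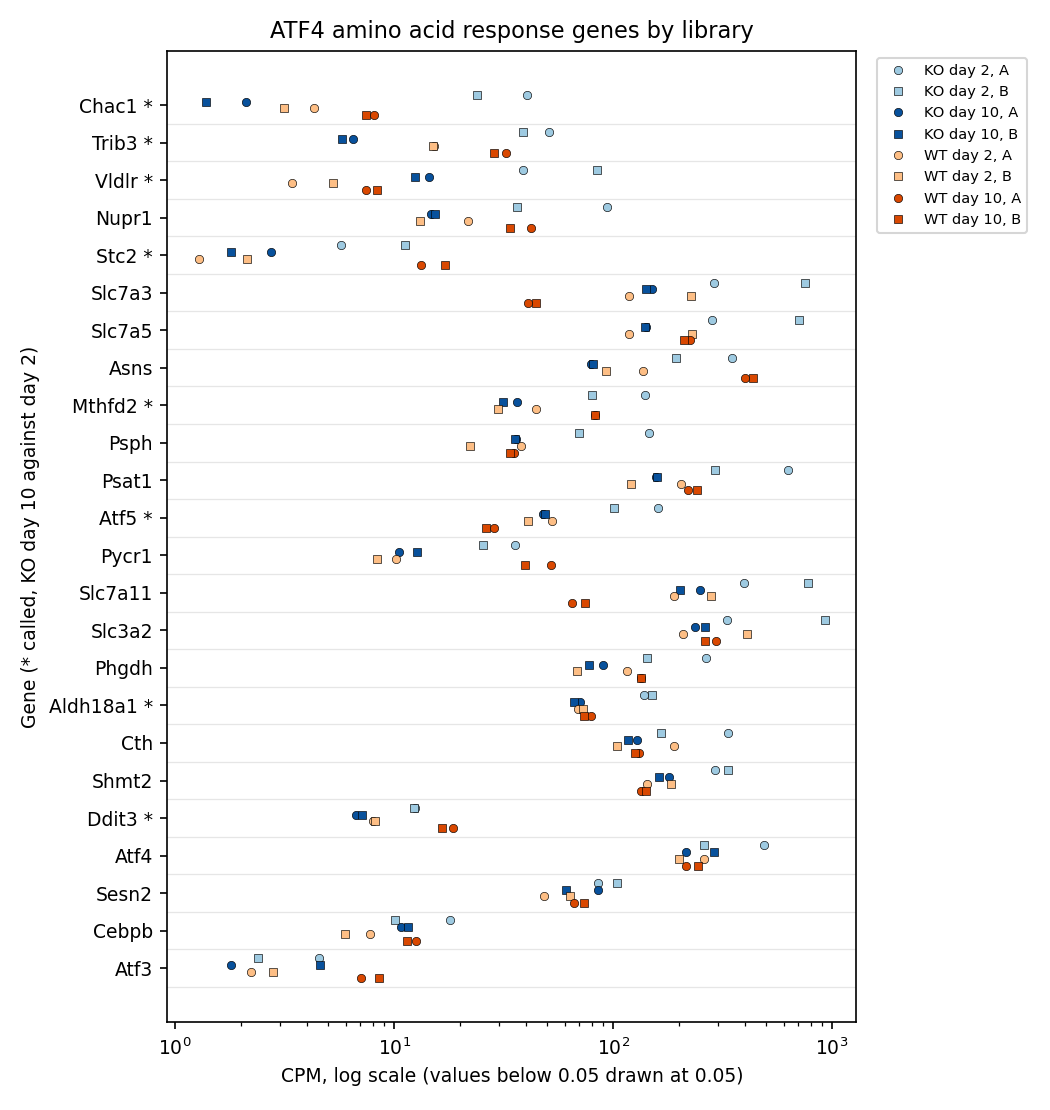
CPM of the 24 tested ATF4 response genes on a log axis, circles for replicate A and squares for B, in KO (blue) and WT (orange) at day 2 (pale) and day 10 (dark), ordered by KO fold change; asterisks mark genes called in the KO. Chac1 drops from 40.3 and 23.9 CPM to 2.11 and 1.39 CPM, and Asns from 351 and 194 CPM to 79.5 and 81.1 CPM.

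The ATF4 list moved differently in WT, where 8 members were called higher and 2 lower (median log2 fold change 0.52). The genotype interaction was called for 10 of 24 members, all more negative in the KO. It was -3.88 ± 0.26, adjusted p = 0.000256 for Trib3 and -5.27 ± 0.48, adjusted p = 0.000778 for Chac1. The KO day 2 level was the high point of both genes: at KO day 0, Chac1 was at 10.2 and 7.65 CPM and Trib3 at 11.4 and 11.01 CPM. KO Trib3 at day 2 lay above WT at day 2, and at day 10 it lay below WT at both days. Asns was at 79.5 and 81.1 CPM in KO at day 10, below WT at day 2 (137 and 92.8 CPM) and at day 10 (402 and 434 CPM; interaction -3.63 ± 0.57, adjusted p = 0.00557). Slc7a11, the cystine transporter, was at 395 and 774 CPM at day 2, then 248 and 202 at day 10 in KO (log2 fold change -1.38 ± 0.37, adjusted p = 0.0845). WT Slc7a11 was at 190.2 and 279 CPM at day 2, then 64.8 and 74.8 at day 10.

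Beyond the ATF4 list, the largest falls were in genes of varied function, several of them known from neurons. Slc6a9, a glycine transporter, was at 12.3 and 30.9 CPM at day 2, then 1.86 and 2.53 at day 10 (log2 fold change -3.29 ± 0.65, adjusted p = 0.0345). Slc17a6, the vesicular glutamate transporter VGLUT2, was at 23.1 and 50.8 CPM at day 2, then 4.96 and 3.07 at day 10 (log2 fold change -3.20 ± 0.55, adjusted p = 0.0189). Day 2 B was the highest library of both genes and neither day 10 library reached day 2. Zfp711, a zinc finger gene, went from 60.4 and 68.03 CPM to 12.8 and 16.8 CPM (log2 fold change -2.11 ± 0.24, adjusted p = 0.00457). Its KO day 0 libraries were at 14.4 and 16.9 CPM, so the day 2 level was the high one. Sall3, a zinc finger gene of development, was at 14.4 and 19.9 CPM at day 2, then 4.46 and 3.798 at day 10 (log2 fold change -2.05 ± 0.38, adjusted p = 0.0267), down from 46.9 and 81.2 CPM at day 0. The remaining large falls were Napsa, an aspartic protease (log2 fold change -2.68), Bche, butyrylcholinesterase (-2.55), Gxylt2, a Notch-modifying xylosyltransferase (-2.23), and Dbn1, the actin binder drebrin (-1.95). Of these 8 genes, 0 kept their call in all 4 fits that leave out a library: Zfp711 lost it without day 10 A (adjusted p = 0.0528), Sall3 in each of the 4, and the other 6 without day 2 B, day 10 A or day 10 B. The neural list as a whole had 0 of 19 members called (4 with an unadjusted p under 0.05, and 1 by DESeq2).

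Some members of the epithelial and trophectoderm lists rose. Of 28 tested epithelial genes 7 were called higher and 0 lower (median log2 fold change 0.92), and of 15 trophectoderm genes 5 higher and 0 lower (median 1.88, or 1.49 with the gene at 0 reads at its bound). The other 21 and 10 members did not pass. The lists share Krt8 and Krt18, partner keratins of simple epithelia. Krt8 was at 0.772 and 0.662 CPM at day 2, then 10.04 and 4.401 at day 10 (log2 fold change 3.31 ± 0.40, adjusted p = 0.00489). Krt18 had 1 read at day 2 and 108 at day 10, a 114-fold ratio (95% exact interval 20 to 4540). Krt19, a further keratin of this kind, was at 1.54 and 1.26 CPM at day 2, then 9.36 and 10.6 at day 10 (log2 fold change 2.82 ± 0.26, adjusted p = 0.00218) with the day 10 libraries alike. Cldn4, a tight junction claudin, was at 3.65 and 8.93 CPM at day 2, then 55.9 and 46.7 at day 10 (log2 fold change 3.03 ± 0.49, adjusted p = 0.0161). Lad1, an anchoring filament protein of basement membranes, was at 0.514 and 0.265 CPM at day 2, then 4.96 and 5.305 at day 10 (log2 fold change 3.66 ± 0.35, adjusted p = 0.00251). These genes were higher in WT at day 10, with 109.8 and 126 CPM of Krt8, 84.25 and 78.6 of Krt18, and 33.3 and 34.8 of Krt19. WT Cldn4 was at 216.5 and 231 CPM and WT Lad1 at 7.07 and 6.93 CPM at day 10. Grhl3, an epithelial transcription factor, was at 13.8 and 9.53 CPM at day 2, then 45.2 and 31.6 at day 10 (log2 fold change 1.71 ± 0.24, adjusted p = 0.0081). It exceeded both WT day 10 libraries (27.8 and 32.8 CPM) in A but not in B. Pkp1, a desmosomal plakophilin named after its values were seen, was at 76.7 and 87.1 CPM at day 2, then 168 and 138 at day 10 (log2 fold change 0.90 ± 0.19, adjusted p = 0.0408). WT Pkp1 fell to 11.2 and 14.3 CPM. Cdh1, the E-cadherin gene, was at 17.96 and 43.02 CPM at day 2, then 111 and 77.04 at day 10 (log2 fold change 1.63 ± 0.52, adjusted p = 0.134). Both day 10 libraries were higher, but the day 2 spread left it short of the threshold. Epcam was at 48.9 and 85.2 CPM at day 2, then 84.4 and 74.2 at day 10, overlapping (log2 fold change 0.24 ± 0.29, adjusted p = 0.735). Krt8, Krt19 and Lad1 were called in all 4 fits that leave out a library, and Krt18, Cldn4, Grhl3 and Pkp1 were not. The epithelial count of 7 became 4, 4, 3 and 5 without day 2 A, day 2 B, day 10 A and day 10 B, and the trophectoderm count of 5 became 3, 3, 3 and 5.

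Among trophectoderm genes, the transcription factor gene Gata2 was at 0.412 and 0.596 CPM at day 2, then 8.12 and 8.62 at day 10 (log2 fold change 4.06 ± 0.35, adjusted p = 0.00169). Hand1, another such gene, was at 0.206 and 0.132 CPM at day 2, then 2.23 and 2.23 at day 10 (log2 fold change 3.64 ± 0.37, adjusted p = 0.00457). For both, day 2 was near 0, the day 10 pair lay close together, and the call was kept without each of the 4 libraries. WT at day 10 lay above the KO, with 20.5 and 25.3 CPM of Gata2 and 6.02 and 6.25 CPM of Hand1. Peg10, an imprinted retrotransposon-derived gene needed for the placenta, was at 365 and 408 CPM at day 2, then 1492 and 1354 at day 10 (log2 fold change 1.88 ± 0.28, adjusted p = 0.0118). Its day 10 level in KO was close to WT at day 2 (1860 and 1829 CPM), whereas WT had dropped to 806 and 727 CPM by day 10. The trophectoderm-defining gene Cdx2 had 0 reads at KO day 2 and 3 and 5 reads at day 10. The X-linked homeobox genes Rhox6 and Rhox9, both expressed in placenta and germ cells, made up 2 called of 5 tested Rhox genes. Rhox9 was at 0.0515 and 0.265 CPM at day 2, then 8.37 and 5.73 at day 10 (log2 fold change 5.52 ± 0.58, adjusted p = 0.00457). Rhox6 was at 0.103 and 0 CPM at day 2, then 6.82 and 4.58 at day 10, from 2 reads to 186 (ratio 98.2, 95% exact interval 26.8 to 817). Both stayed below WT at day 10, which had 31.7 and 36.4 CPM of Rhox9 and 28.5 and 30.85 CPM of Rhox6. Rhox9 kept its call without each of the 4 libraries, and Rhox6 and Peg10 lost it without day 2 A, day 2 B or day 10 A (adjusted p up to 0.0989 and 0.0884).

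The stratified epithelium list had 3 of 25 members called, all higher. Sprr2a1, a cornified envelope gene, was at 1.29 and 1.06 CPM at day 2, then 18.1 and 14.1 at day 10 (log2 fold change 3.76 ± 0.43, adjusted p = 0.00457). Its values are identical to those of Sprr2a2, so the pair is uncertain and counts as 1 signal. Sfn, a 14-3-3 protein, was at 19.3 and 16.1 CPM at day 2, then 59.02 and 47.9 at day 10 (log2 fold change 1.59 ± 0.22, adjusted p = 0.00855). In both genes day 10 lay above day 2 in both libraries, but Sfn lost its call without day 2 B or day 10 A. The keratinocyte-defining markers summed to 0.0515 and 0 CPM at day 2 and 1.67 and 0.844 CPM at day 10.

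Among the largest rises outside those lists, Plcb1, phospholipase C beta 1, was at 4.53 and 4.37 CPM at day 2, then 53.8 and 51.5 at day 10 (log2 fold change 3.56 ± 0.23, adjusted p = 0.000456). Cbr2, a carbonyl reductase, was at 0.514 and 0.331 CPM at day 2, then 10.9 and 9.103 at day 10 (log2 fold change 4.52 ± 0.30, adjusted p = 0.000456). The actin-severing gelsolin gene Gsn was at 8.34 and 9.199 CPM at day 2, then 63.7 and 80.5 at day 10 (log2 fold change 3.04 ± 0.20, adjusted p = 0.000456). The replicates of each gene lay close together and far from the other day, and the 3 calls were kept without each of the 4 libraries. Wfdc2, a secreted whey acidic protein family member, was at 1.801 and 2.85 CPM at day 2, then 21.1 and 16.7 at day 10 (log2 fold change 3.03 ± 0.29, adjusted p = 0.00251). A4galt, the synthase of the glycolipid Gb3, was at 0.823 and 1.72 CPM at day 2, then 12.03 and 9.34 at day 10 (log2 fold change 3.09 ± 0.42, adjusted p = 0.00768). Mylpf, a myosin light chain of fast muscle, was at 6.38 and 3.51 CPM at day 2, then 47.2 and 30.4 at day 10 (log2 fold change 2.96 ± 0.40, adjusted p = 0.00723). Rbm47, an RNA-binding protein gene, had 0 reads at day 2 and 90 at day 10, at least 31.7-fold higher. Pecam1, an adhesion molecule found on endothelium and on ESCs, was at 0.3601 and 0.331 CPM at day 2, then 5.33 and 3.496 at day 10 (log2 fold change 3.64 ± 0.34, adjusted p = 0.00218). Vwf was the other called member of 8 endothelial genes, and its call was lost without any 1 of the 4 libraries. The endothelial markers Kdr, Cdh5 and Tek summed to 31.7 and 64.7 CPM at day 2 and 30.4 and 25.7 CPM at day 10, with 0 of 3 called. Mef2c, a transcription factor gene of muscle and endothelium, was at 0.772 and 1.06 CPM at day 2, then 6.82 and 5.61 at day 10 (log2 fold change 2.77 ± 0.37, adjusted p = 0.00744). Leaving out single libraries cost A4galt its call without day 10 A, and Mef2c without day 2 A or day 10 A.

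Smaller numbers rose in metabolic, imprinted and interferon genes. Gsta1, Gsta3 and Gpx2, of glutathione-dependent detoxification, were the 3 called of 19, all higher. Gsta1 was at 0.257 and 0.132 CPM at day 2, then 2.604 and 2.89 at day 10 (log2 fold change 3.73 ± 0.42, adjusted p = 0.00521). Gsta3 was at 11.2 and 5.69 CPM at day 2, then 27.8 and 39.8 at day 10 (log2 fold change 1.99 ± 0.44, adjusted p = 0.0483). Gpx2 went from 0 reads to 36, at least 12.7-fold higher. Gsta1 kept its call without each of the 4 libraries, Gsta3 and Gpx2 lost theirs in every such fit, and the list count was 1 in each of those fits. Among 29 glycolysis and hypoxia genes, Ndrg1 and Egln3, both induced by hypoxia, were called. Ndrg1 was at 76.2 and 52.7 CPM at day 2, then 239.7 and 185 at day 10 (log2 fold change 1.72 ± 0.29, adjusted p = 0.0175). Egln3 was at 36.9 and 26.7 CPM at day 2, then 114 and 71.9 at day 10 (log2 fold change 1.54 ± 0.32, adjusted p = 0.0415). In each of the 2 genes the lowest day 10 library exceeded the highest day 2 library, but both lost the call without day 2 B or day 10 A, and Egln3 also without day 2 A. Of 29 tested imprinted genes, 3 were called higher, namely Peg10, the growth factor gene Igf2 and Slc38a4, an amino acid transporter gene. Igf2 was at 6.84 and 9.33 CPM at day 2, then 26.3 and 29.9 at day 10 (log2 fold change 1.80 ± 0.23, adjusted p = 0.00628). Slc38a4 was at 0.103 and 0 CPM at day 2, then 5.02 and 2.53 at day 10, a ratio of 64.9 (95% exact interval 17.6 to 542).

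Interferon response genes had 4 called of 26 tested, all higher. Zbp1, a nucleic acid sensor, was at 1.24 and 0.728 CPM at day 2, then 4.71 and 4.22 at day 10 (log2 fold change 2.16 ± 0.27, adjusted p = 0.00567). Irf7, a regulator of type I interferon, was at 0.309 and 0.529 CPM at day 2, then 2.11 and 2.23 at day 10 (log2 fold change 2.38 ± 0.39, adjusted p = 0.0161). Oas1a, an oligoadenylate synthetase, was at 2.42 and 1.46 CPM at day 2, then 6.63 and 6.09 at day 10 (log2 fold change 1.70 ± 0.33, adjusted p = 0.0318), and Xaf1 was at 10.03 and 8.21 CPM at day 2, then 19.9 and 20.7 at day 10. For each of the 4, day 10 lay above day 2 in both libraries, as for all 357 genes called higher. WT at day 10 had 43.5 and 37.7 CPM of Zbp1 and 30.5 and 20.6 CPM of Irf7, and 22 of the 26 were called higher there. The interaction was called for 4 of 26, all more negative in the KO. Zbp1 kept its call without each of the 4 libraries, Irf7 and Oas1a in none of those fits, and Xaf1 only without day 2 A. The count of 4 became 2 without day 2 A and 1 without any other library.

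Several groups showed no call in the KO in the main test, which does not show that they were unchanged. Over all tested genes the share called was 3.1%, at which lists of 15 to 25 members can hold 0 calls. The cell cycle list had 0 of 24 (median log2 fold change 0.06), cell cycle inhibitors and p53 targets 0 of 22, H3K9 methylation enzymes and readers 0 of 20 (0.03), and DNA methylation and TET genes 0 of 15. At an unadjusted p under 0.05, edgeR passed 0, 2, 1 and 2 of them in that order, beside 2611 of all 14324 genes, and DESeq2 called 0, 1, 0 and 2. Hox genes had 0 of 25 called (median -0.28), Wnt targets 0 of 19 (0.74), antigen presentation 0 of 15 and ERK targets 0 of 21 (0.20). In that order, edgeR passed 4, 8, 5 and 6 at an unadjusted p under 0.05, beside the same 2611 of 14324 genes. DESeq2 called 3, 3, 2 and 2 of them, beside 1341 of all tested genes. Among ERK targets, the immediate early gene Fos was at 5.45 and 10.8 CPM at day 2, then 168 and 27.9 at day 10 (log2 fold change 3.59 ± 0.90, adjusted p = 0.0723). Egr1, another, was at 6.48 and 14.4 CPM at day 2, then 74.9 and 36.8 at day 10 (log2 fold change 2.42 ± 0.99, adjusted p = 0.238). Day 10 A was well above day 10 B in both. Cholesterol synthesis genes had 0 of 20 called, though 18 of the 20 lay below 0 (median -0.43), 4 passed at an unadjusted p under 0.05 and DESeq2 called 2. Cyp51, a sterol demethylase, was at 126 and 222 CPM at day 2, then 78.1 and 74.2 at day 10 (log2 fold change -1.19 ± 0.29, adjusted p = 0.0659). With the letter as a block at days 0 and 2, which called 5328 of 14324 genes, each of these lists held calls. Cholesterol synthesis had 10 lower and 0 higher, Wnt targets 9 higher and 1 lower, and Hox genes 6 lower and 0 higher. Antigen presentation had 6 lower and 1 higher, ERK targets 6 higher and 0 lower, and the cell cycle 4 higher and 1 lower. The cell cycle median was -0.134 with only letter A and 0.446 with only letter B at those days. Of 32 fibroblast and mesenchymal genes, 1 was called, the mesenchymal factor gene Twist1, at 0.3601 and 0.331 CPM at day 2, then 1.36 and 0.965 at day 10 (log2 fold change 1.73 ± 0.37, adjusted p = 0.0445). Its call was lost without any 1 of the 4 libraries. The 32 genes together summed to 2543 and 6325 CPM at day 2 and 3462 and 3127 CPM at day 10. The fibroblast-defining markers, a shorter set with 6 tested members, summed to between 2.26 and 8.41 CPM in the 4 KO libraries.

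Fewer genes were called in the KO than over the same interval in WT. In WT 4227 were called (29.5%), 2625 higher (18.3%) and 1602 lower (11.2%), against 444. The KO day 2 pair was the more spread (chi-square per gene 266.4, against 137.3 in WT), so these counts do not measure response size. DESeq2 called 4670 in WT and 1341 in KO. A letter block at days 0 and 2 gave 8984 and 5328, and only the libraries compared gave 4911 and 0. The 2 contrasts use separate libraries. Of the 357 KO risers, 173 were also called higher in WT (48.5% of the risers and 6.59% of the WT set), 45 were called lower in WT, and 139 were not called there. Of the 87 KO fallers, 25 were called lower in WT (28.7%) and 27 higher (31.0%). The change itself differed between genotypes in 1526 genes (10.7%), more positive in KO for 692 (4.83%) and more negative for 834 (5.82%). Those sets held 147 of the 357 risers on the positive side and 11 on the negative side. They held 43 of the 87 fallers on the negative side and 1 on the positive side. The interaction contains the KO change by which these genes were called, so a lean to the same side was fixed in part by that choice. With the length correction, the median interaction over all genes shifted from -0.008 to 0.23 and the split became 1521 to 883.

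**Figure D5:**
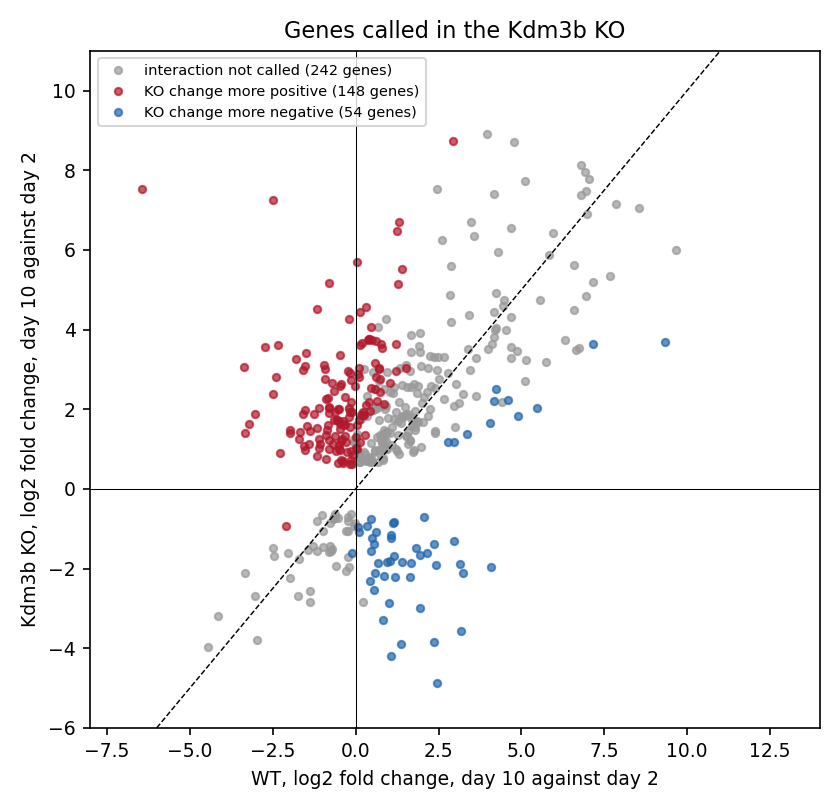
Log2 fold change from day 2 to day 10 in WT (x) and in the Kdm3b KO (y) for the 444 genes called in the KO, coloured by the genotype interaction; the dashed line marks equal change. The 148 red genes (KO more positive) sit above the line and the 54 blue genes (KO more negative) below it, and 242 grey genes had no called interaction. The interaction contains the KO change that selected these genes.

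Of the 8 largest positive interactions, those of Plcb1, Cbr2, Wdfy4 and Cxx1c belonged to genes called higher in the KO and lower in WT. Rbm47 and Rhox6 rose in the KO and had fold changes above 0 in WT as well (2.94 and 1.24), and Wnt8a and Btla were not called in the KO. The KO call of Cxx1c was lost without any 1 of the 4 libraries. Plcb1 was at 14.8 and 13.8 CPM at day 2, then 1.74 and 2.56 at day 10 in WT (interaction 6.30 ± 0.33, adjusted p = 0.000256). Cbr2 was at 22.8 and 16.6 CPM at day 2, then 8.61 and 8.99 at day 10 in WT (interaction 5.68 ± 0.38, adjusted p = 0.000256). Wdfy4, a BEACH-domain protein gene, went from 3.96 and 3.18 CPM to 17.4 and 19.6 CPM in KO. WT Wdfy4 was at 21.99 and 17.6 CPM at day 2, then 3.17 and 3.87 at day 10. The KO day 10 level of Wdfy4 was close to the WT day 2 level, that of Cbr2 lay below it, and that of Plcb1 was over 3 times as high. Wnt8a, a Wnt ligand gene, overlapped between days in the KO (6.84 and 20.3 CPM at day 2, then 22.3 and 20.2 at day 10) and fell in WT from 70.5 and 106 CPM to 2.22 and 2.12 CPM (interaction 5.99 ± 0.79, adjusted p = 0.0029). Mylpf, Peg10, Ndrg1 and Grhl3 also had called positive interactions, with WT fold changes below 0.

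Among the 8 most negative interactions were those of Gli2, Xlr5b, Aurkc and Prdm16, which were high in WT at day 10 and low in the KO. Gli2, a Hedgehog effector, was at 2.01 and 3.64 CPM at day 2, then 3.22 and 1.57 at day 10 in KO and at 71.8 and 64.7 CPM in WT at day 10 (interaction -8.10 ± 0.67, adjusted p = 0.000668). Xlr5b, an X-linked gene, was at 0.496 and 0.0603 CPM in KO at day 10 against 35.1 and 36.6 CPM in WT. Aurkc, a meiotic Aurora kinase gene, was at 0.06199 and 0.181 CPM against 39.4 and 32.9 CPM. Prdm16, a zinc finger regulator, reached 20.01 and 18.7 CPM in WT and 0.868 and 0.301 CPM in KO (interaction -8.02 ± 1.20, adjusted p = 0.0044). Of the 18 naive pluripotency genes, 13 were called higher in WT and 0 lower. The interaction was called for 4 of the 18, all more negative in the KO (list median -0.733), beside 5.82% of all tested genes. Nanog, 1 of these 4, rose in both genotypes but by less in the KO (interaction -1.72 ± 0.43, adjusted p = 0.0349). The interactions of Esrrb (0.51 ± 0.91, adjusted p = 0.839), Klf2 (0.47 ± 0.24, adjusted p = 0.269) and Dppa5a (-0.48 ± 0.65, adjusted p = 0.766) missed the threshold, which does not show equal change in the genotypes.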

How the data were processed

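Single-end libraries were made from 2 µg of RNA with a TruSeq kit, per the labels' protocols. Per the submitters' processing notes, Bowtie2, RSEM and mm9 were used, with versions not given in the sources used here. The authors' files hold expected counts, in which RSEM divides ambiguous reads among transcripts, and TPM, which the authors scaled by length. Only expected counts were tested, and TPM was not printed. RSEM counts of near-identical genes are uncertain, and strand use is not stated.

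Expected counts were rounded and tested by edgeR 4.0.16 (quasi-likelihood, R 4.3.3) over the 12 pre-iPSC libraries (6 groups, filterByExpr, 14324 genes, TMM), with contrasts KO day 10 minus day 2 and its interaction with WT. The fit shares 1 estimate of spread between groups (6 residual degrees of freedom, common biological coefficient of variation 0.266) and was tested on simulated counts. Letters A and B were not used as pairs: the deviations of KO day 2 and KO day 10 correlated at 0.026, while those among day 0 and day 2 groups correlated at 0.741 to 0.812. The libraries hold 14891294 to 26430050 counts, and intervals and floors cover counting error only. Named genes are Kdm3b, the 12 largest non-overlapping called changes each way above a mean of 5 CPM, in every list the 6 most significant members above 1 CPM, and the 8 largest interactions each way; others are stated as named after their values were seen, or are the remaining called members of a list. The comparison, the 30 gene lists and the rules were chosen with earlier results of these data known. Of 615 list entries 608 were found in the files. Alternatives were RLE size factors, DESeq2 1.42.0, no filter on low counts, only the libraries compared, a replicate block, and leaving out each library. A length correction and fits with 1 letter at days 0 and 2 were added after seeing the data. Some results that the rules would name are not reported here.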

Additional observations from a re-analysis of the deposited data

Results flagged for a closer look

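Of 110 genes named in the text (Mycl1 and Sc4mol only in this section), 55 had a change from day 2 to day 10 that differed between KO and WT. The test was the interaction test of edgeR's fit (FDR under 0.05), with 2 libraries a group. Over all tested genes the share was 10.7%. Many of those named were picked for a large KO change or a large interaction, so their share was set in part by that choice. Values are the log2 change in KO minus that in WT, and a more positive value does not mean a higher level in KO. The KO change was more negative for 24 genes: Xlr5b -9.04, Gli2 -8.10, Prdm16 -8.02, Aurkc -6.54, Tcl1 -5.65, Mycl1 -5.49, Chac1 -5.27, Stc2 -5.04, Stag3 -4.87, Slc6a9 -4.12, Trib3 -3.88, Asns -3.63, Pecam1 -3.51, Bche -3.11, Vldlr -3.05, Piwil2 -2.87, Mthfd2 -2.85, Mycn -2.76, Tgm2 -2.37, Sc4mol -2.34, Ddit3 -1.96, Nanog -1.72, Cyp51 -1.61, Aldh18a1 -1.18. It was more positive for 31 genes: Socs2 1.47, Wfdc2 1.52, Sfn 1.56, Gbp2 1.62, Ucp2 1.69, Egln3 1.72, Stat5a 1.95, Mef2c 2.03, Krt19 2.20, Grhl3 2.21, Epas1 2.32, Ndrg1 2.39, Gsta3 2.52, Hand1 2.87, Gsn 2.94, Peg10 3.15, Pkp1 3.18, Mylpf 3.20, Gsta1 3.23, Sprr2a1 3.36, Lad1 3.47, Gata2 3.60, Rhox9 4.13, Cxx1c 4.85, Wdfy4 4.86, Btla 4.86, Rhox6 5.24, Cbr2 5.68, Rbm47 5.79, Wnt8a 5.99, Plcb1 6.30. In the first set the ATF4 response members Chac1, Stc2, Trib3, Asns, Vldlr, Mthfd2, Ddit3 and Aldh18a1 lay on the negative side in KO and above 0 in WT. In the second set Plcb1, Cbr2, Wdfy4, Cxx1c, Pkp1 and Peg10 rose in KO and fell in WT. A length correction moved the median interaction over all genes by over 0.1, from -0.008 to 0.23.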

How the results depend on the processing

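For the KO change, RLE size factors (461 genes) and no filter on low counts (388) stayed within 1.5 times the 444 called, while leaving out each library in turn gave 112 to 192. The 4 KO libraries alone gave 0 (1382 at an unadjusted p under 0.05), DESeq2 1341, the length correction 798, and fits with only letter A or only letter B at days 0 and 2 gave 3282 and 6667. For the interaction, where 1526 genes were called, the 8 libraries compared gave 1307, RLE 1526 and no filter 1362. DESeq2 gave 2455, the length correction 2404, and leaving out each library 641 to 1341. The letters do not pair day 2 with day 10. A replicate block over all 12 libraries called 1152 genes in the KO and 2573 in the interaction, and a replicate block at days 0 and 2 only called 5328 and 6033. That block models a letter difference shared by the day 0 and day 2 groups and leaves day 10 without one. Its residual spread comes from the day 10 pairs and from departures of the earlier groups from the shared difference. The cause of the shifts in these counts was not tested. All 444 calls were kept with the same direction under both blocks, 438 under DESeq2 and 406 under the length correction. Of the 67 genes called in the KO that the naming rule picks, 0 reversed under any of the 13 alternatives. All 67 kept the call under RLE, DESeq2, both blocks and both single-letter fits, 66 under the length correction and 64 without the filter. In the 4 fits that leave out a library 30 to 45 of the 67 kept it, and 0 did in the 4 KO libraries alone. With 2 libraries a group, depth limits genes under about 1 CPM most.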

Other observations

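Among the 77 genes called in the KO in the main test and in all 4 fits that leave out a library were several genes that belong to none of the lists described above and were named after their values were seen. Sgk1, a serum- and glucocorticoid-regulated kinase, was at 3.396 and 5.43 CPM at day 2, then 30.8 and 28.4 at day 10 (log2 fold change 2.75 ± 0.30, adjusted p = 0.00457), which was near the WT day 2 level (29.5 and 30.9 CPM) and not the WT day 10 level (160.3 and 184 CPM). Epas1, which encodes the hypoxia-inducible factor HIF-2 alpha, was at 14.2 and 13.2 CPM at day 2, then 55.05 and 70.2 at day 10 (log2 fold change 2.19 ± 0.18, adjusted p = 0.00124). Its KO day 0 level had been 72.7 and 84.2 CPM. Ucp2, a mitochondrial carrier, was at 5.14 and 5.29 CPM at day 2, then 29.1 and 27.1 at day 10 (log2 fold change 2.43 ± 0.17, adjusted p = 0.000571), against 138 and 178 CPM in WT at day 10.

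The following genes, also among the 77, were chosen in the same way. Stat5a, a signal transducer of cytokine receptors, was at 28.7 and 34.5 CPM at day 2, then 95.03 and 98.7 at day 10 (log2 fold change 1.62 ± 0.21, adjusted p = 0.00604) and stood above every WT library of days 2 and 10 (26.2 and 26.1 CPM at day 2, then 24.8 and 16.7 at day 10). Socs2, a feedback inhibitor of this pathway, was at 24.03 and 20.2 CPM at day 2, then 46.2 and 54.4 at day 10 (log2 fold change 1.18 ± 0.16, adjusted p = 0.00675), from 70.7 and 63.5 CPM at day 0. Gbp2, an interferon-inducible GTPase, was at 1.03 and 1.39 CPM at day 2, then 7.997 and 7.17 at day 10 (log2 fold change 2.65 ± 0.30, adjusted p = 0.00457). Lgals9, a galectin, was at 1.44 and 1.39 CPM at day 2, then 6.45 and 7.54 at day 10 (log2 fold change 2.30 ± 0.27, adjusted p = 0.00457). Klf9, a Krüppel-like factor induced by hormones, was at 19.6 and 16.7 CPM at day 2, then 50.2 and 55.9 at day 10 (log2 fold change 1.54 ± 0.18, adjusted p = 0.00457). Tgm2, a transglutaminase, was at 0.875 and 0.662 CPM at day 2, then 3.97 and 3.32 at day 10 (log2 fold change 2.22 ± 0.26, adjusted p = 0.00457). In all 9 genes both day 10 libraries lay above both day 2 libraries. The same holds for all 357 genes called higher, so the choice of called genes fixed it. Of all tested genes, 43.2% had no overlap, in either direction.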
